A study of Mus musculus with 8 samples.

Results

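The H3.3-HA peaks that lie in gene promoters were examined in the 4 peak lists of the series. A peak was a member when its midpoint lay from 3 kb upstream of a transcription start site (TSS) up to the TSS, where the TSS is the 5′ end of a protein-coding gene on mm9. This rule gave 5539 of 75040 peaks. The WT lists held 1856 promoter peaks at day 0 and 3020 at day 15, and the Hira-null lists held 323 and 340. The lists come from native H3.3-HA ChIP-seq, in which chromatin is cut with micrococcal nuclease and HA-tagged H3.3 is precipitated, with 1 ChIP library and 1 input library per condition. WT cells were W9.5 mouse embryonic stem cells (mESCs) with wild type Hira, Hira-null cells were 1 clone, Clone104, that lacks HIRA, and both carried HA-tagged H3.3. Day 0 samples were undifferentiated, and day 15 samples had been differentiated towards cardiomyocytes by hanging drop, which gives mixed cultures. Because each condition has 1 library, differences between lists have no replicate check and no test was made, and fewer cells of a type cannot be told apart from less H3.3 per cell.

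H3.3 is a histone variant that is built into chromatin at any stage of the cell cycle, and the HIRA chaperone complex is known to place it at active promoters and gene bodies, while ATRX and DAXX place it at repeats and telomeres. Promoters of active genes usually hold a nucleosome-poor stretch at the TSS, flanked by nucleosomes that turn over fast and carry H3.3. A peak list marks where the signal passed a threshold, so a gene with no peak may still hold H3.3.

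The following 300-base stretches of mm9 show the kinds of promoter peak found, on the strand of the gene, with each CpG in capitals. The first pair, shown for the contrast in CpG, are the centre of the WT day 15 peak upstream of Tbx2, a T-box repressor of the heart (chr11:85644395-85644694, in an intron of the noncoding gene 2610027K06Rik), and the last 300 bases before the Tbx2 TSS (chr11:85645753-85646052, outside any gene). The others are the centres of the WT day 0 peak at Pou5f1, which encodes the pluripotency factor Oct4 (chr17:35640874-35641173), and of the WT day 0 peak at Sumo2, a modifier gene with promoter peaks in all 4 lists (chr11:115398053-115398352). The last ones come from Hira-null day 15 peaks with no WT day 15 peak, at the transporter gene Osta (chr16:32490474-32490773) and at Ror1, a Wnt receptor gene (chr4:99767107-99767406). The Pou5f1, Sumo2, Osta and Ror1 stretches lie outside annotated genes.
Tbx2 peak: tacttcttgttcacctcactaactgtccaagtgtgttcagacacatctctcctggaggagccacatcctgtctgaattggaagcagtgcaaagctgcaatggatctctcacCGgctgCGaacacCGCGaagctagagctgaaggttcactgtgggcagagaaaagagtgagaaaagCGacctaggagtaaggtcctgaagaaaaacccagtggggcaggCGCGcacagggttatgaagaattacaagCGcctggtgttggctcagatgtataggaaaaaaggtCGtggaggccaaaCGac
Tbx2 before the TSS: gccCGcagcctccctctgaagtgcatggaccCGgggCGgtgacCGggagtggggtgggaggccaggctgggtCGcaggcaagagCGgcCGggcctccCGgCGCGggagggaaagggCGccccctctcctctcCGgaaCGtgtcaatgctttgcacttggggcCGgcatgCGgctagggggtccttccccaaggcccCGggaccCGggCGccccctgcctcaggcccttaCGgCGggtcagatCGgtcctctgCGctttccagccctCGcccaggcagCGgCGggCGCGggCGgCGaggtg
Pou5f1 peak: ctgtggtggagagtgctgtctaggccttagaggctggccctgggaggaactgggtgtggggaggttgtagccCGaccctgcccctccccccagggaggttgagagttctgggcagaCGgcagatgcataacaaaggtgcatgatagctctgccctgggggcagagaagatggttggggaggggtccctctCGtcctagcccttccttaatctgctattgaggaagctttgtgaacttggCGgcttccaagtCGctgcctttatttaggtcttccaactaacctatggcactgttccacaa
Sumo2 peak: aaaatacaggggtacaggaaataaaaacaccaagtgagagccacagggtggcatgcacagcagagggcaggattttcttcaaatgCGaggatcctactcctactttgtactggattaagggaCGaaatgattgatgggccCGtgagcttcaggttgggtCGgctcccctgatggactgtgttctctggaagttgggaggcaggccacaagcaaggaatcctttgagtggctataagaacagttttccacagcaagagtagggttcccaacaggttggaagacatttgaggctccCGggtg
Osta peak: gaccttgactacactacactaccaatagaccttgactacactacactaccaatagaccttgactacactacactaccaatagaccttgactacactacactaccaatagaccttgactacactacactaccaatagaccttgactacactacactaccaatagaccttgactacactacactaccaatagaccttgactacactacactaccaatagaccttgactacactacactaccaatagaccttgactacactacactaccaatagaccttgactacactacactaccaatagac
Ror1 peak: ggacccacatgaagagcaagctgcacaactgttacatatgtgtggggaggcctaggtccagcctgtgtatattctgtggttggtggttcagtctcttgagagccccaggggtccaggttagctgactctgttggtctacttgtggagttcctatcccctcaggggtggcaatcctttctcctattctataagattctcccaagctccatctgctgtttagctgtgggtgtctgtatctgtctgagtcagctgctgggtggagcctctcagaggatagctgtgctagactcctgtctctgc
The stretch before the Tbx2 TSS held 29 CpG and was 74.3% G and C, whereas the peak centre upstream of it held 10 CpG at 51.0%. The Pou5f1 and Sumo2 centres held 5 CpG each, and the Osta and Ror1 centres held 0. The Osta centre is a 27-base unit repeated head to tail, in which 100% of bases equalled the base 27 positions further on.

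WT promoter peaks gathered in a band upstream of the TSS, and Hira-null promoter peaks did not. In WT cells the most populated 250 bp bins lay between 1000 and 500 bp upstream, with 13.6 peaks in each per 1000 peaks of the day 0 list and 17.3 and 17.6 per 1000 of the day 15 list. The last 250 bp before the TSS held 4.53 and 4.00 per 1000, and the first 250 bp past it 2.77 and 2.31. A lower second band lay downstream, with its highest bin at 6.16 per 1000 from 750 bp at day 0 and 8.32 per 1000 from 1000 bp at day 15. In Hira-null cells the upstream bins ran between 0.621 and 2.32 per 1000 at day 0 and between 1.23 and 6.14 at day 15, with the lowest value in the last 250 bp before the TSS and the highest over 2500 bp away.

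**Figure D1:**
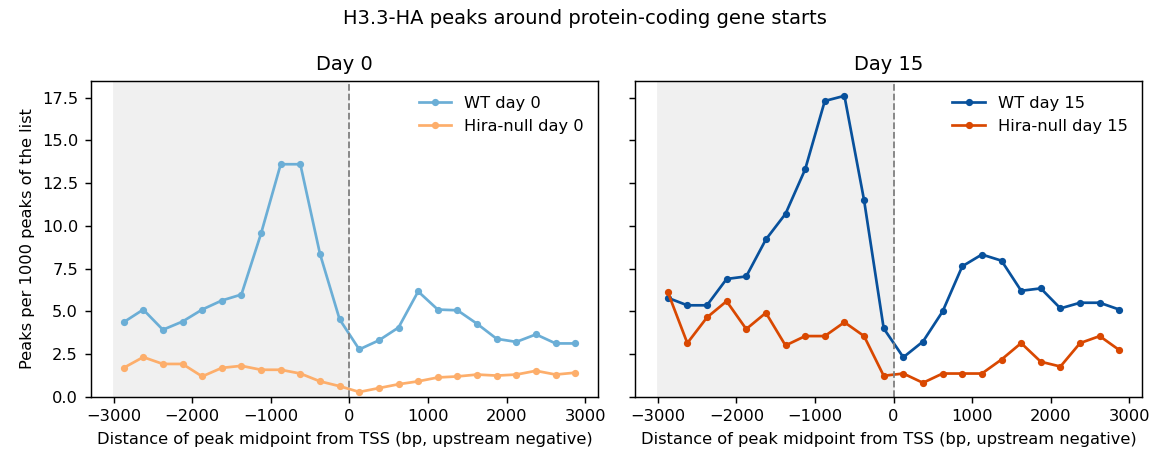
H3.3-HA peaks by the distance of their midpoint from the TSS of protein-coding genes (x axis, bp, upstream negative, grey for the 3 kb promoter window), as peaks per 1000 peaks of each list in 250 bp bins (y axis), at day 0 (left) and day 15 (right). WT lines peak at 13.6 and 17.6 per 1000 between 1000 and 500 bp upstream and dip at the TSS, while the Hira-null lines stay at or below 6.14.

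The median distance from midpoint to TSS was 1035 bp in WT day 0 (95% interval 996 to 1085, n = 1856 peaks) and 1105 bp in WT day 15 (1066 to 1146, n = 3020). It was 1699 bp in Hira-null day 0 (1561 to 1879, n = 323) and 1734 bp in Hira-null day 15 (1580 to 1882, n = 340). Intervals here and below are exact binomial ones over peaks and cover counting error only. Midpoints over 1500 bp from the TSS made up 33.1% and 34.0% of the WT promoter peaks at day 0 and day 15, against 57.3% (51.7 to 62.7) and 59.4% (54.0 to 64.7) of the Hira-null ones. The order held for single-copy and for high-scoring peaks, but within 1 kb of the TSS the medians were 631 bp and 649 bp at day 0 and 636 bp and 584 bp at day 15, WT first. The peak itself reached the TSS in 16.8% (15.1 to 18.6) of the WT day 0 members, 13.6% (10.1 to 17.9) of Hira-null day 0, 13% (11.8 to 14.2) of WT day 15 and 7.65% (5.06 to 11) of Hira-null day 15. No break marked the outer limit of the window: peak and gene pairs 2500 to 3000 bp upstream and those 3000 to 3500 bp upstream numbered 215 and 213 in WT day 0, and 71 and 89 among Hira-null day 0 peaks. At day 15 they numbered 304 and 266 for WT and 68 and 71 for Hira-null cells.

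Promoters took up a larger share of the WT lists than of the Hira-null lists. The share was 8.17% of 22730 WT day 0 peaks (7.81 to 8.53) against 1.82% of 17706 Hira-null day 0 peaks (1.63 to 2.03). At day 15 it was 11.1% of 27272 WT peaks (10.7 to 11.5) against 4.64% of 7332 Hira-null peaks (4.17 to 5.14). With each list held to its 7332 highest-scoring peaks, the shares were 7.62%, 1.43%, 12.1% and 4.64% in the same order, so WT stayed above Hira-null on each day. Read depth per library is not known, and numbers of peaks carry it.

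In width and score, the medians of promoter peaks were near those of the other peaks of their list, with the widest gaps in Hira-null day 0. Some smaller gaps also went beyond counting error, as for WT day 0 width, with intervals of 1061 to 1116 bp against 1034 to 1049 bp. The median width was 1092 bp in WT day 0 (other peaks 1041 bp), 944 bp in WT day 15 (953 bp) and 790 bp in Hira-null day 15 (774 bp). Hira-null day 0 promoter peaks were narrower than the others of that list, at 1357 bp (1306 to 1425) against 1520 bp (1503 to 1533). The score, given by the authors' peak caller, was read only as a percentile rank within its list, where 100 is the highest. The median rank of promoter peaks was 47.7 in WT day 0, 41.6 in Hira-null day 0, 53.5 in WT day 15 and 47.2 at Hira-null day 15, with 49.6 to 50.2 for other peaks. For Hira-null day 0 the intervals were 37.0 to 45.3 for promoter peaks and 49.5 to 51.0 for others. Among the Hira-null day 0 members, 4.64% (2.62 to 7.54) of the promoter peaks ranked in the top 10% of the list, against 8.78% in WT day 0, 9.77% in WT day 15 and 7.94% at Hira-null day 15.

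Counted by gene, 1826 of 22367 protein-coding genes had a promoter peak in WT day 0 (8.16%), 324 in Hira-null day 0 (1.45%), 2825 in WT day 15 (12.6%) and 320 at Hira-null day 15 (1.43%). These shares are the background for each gene group below. With lists of 7332 peaks, the counts were 567 and 108 at day 0 and 885 and 320 at day 15, WT first. A single promoter peak was found at 95.4% of the WT day 0 genes and 90.1% of the WT day 15 genes. Dppa2, a gene of pluripotent cells that encodes a SAP-domain protein, had the most in WT day 0, with 3 peaks and 0 in the other lists, and 6 genes had 3 in WT day 15, among them the clathrin adaptor subunit genes Ap2b1 and Ap3m2. In Hira-null day 15, Ech1, Rbm22 and Sumo3 had 3 each. By pattern over the lists, 1880 genes had a promoter peak in WT day 15 alone, 875 in WT day 0 alone, 750 on both WT days and in neither Hira-null list, 150 in Hira-null day 0 alone, 118 in Hira-null day 15 alone, and 17 in both Hira-null lists and neither WT list. Genes with a promoter peak also had a peak inside the gene more often than genes without one, at 42.6% against 20.5% in WT day 0, 21.3% against 12.2% in Hira-null day 0, 52.7% against 21.7% in WT day 15 and 16.6% against 8.65% in Hira-null day 15. These shares are not adjusted for gene length.

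Setting the WT against the Hira-null lists asks which promoter peaks have no counterpart without HIRA. A WT peak is called HIRA-dependent where the Hira-null list of that day had no peak over it by 1 bp or more, a term that describes the lists and not a cause. At day 0, 92.5% of the 1856 WT promoter peaks were HIRA-dependent (91.2 to 93.6), against 70.9% of the 20874 other WT peaks (70.3 to 71.5). At day 15 the values were 95.1% of 3020 promoter peaks (94.3 to 95.9) and 91.5% of 24252 other peaks (91.2 to 91.9). The Hira-null lists held 323 and 340 promoter peaks, so high shares at WT promoter peaks follow in large part from these numbers. The contrast with other peaks is not independent of the difference in promoter share given above. HIRA-dependent promoter peaks lay at 1700 genes at day 0 (7.60% of all genes) and at 2699 at day 15 (12.1%). Of these, 757 had one on both days, 943 on day 0 and 1942 on day 15 without one on the other day.

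The reverse comparison gave lower shares, over fewer promoter peaks. The numbers that overlapped were alike from both sides, at 140 WT and 130 Hira-null promoter peaks at day 0 and 147 and 165 at day 15. Of 323 Hira-null day 0 promoter peaks, 59.8% (54.2 to 65.1) had no WT peak of that day, and 67.3% (66.6 to 68.0) of the other Hira-null peaks had none. Of 340 Hira-null day 15 promoter peaks, 51.5% (46.0 to 56.9) had no WT peak, against 70.1% (69.0 to 71.1) of the others. The lists differ in length. With lists of 7332 peaks the Hira-null day 15 share was 64.7% for promoter peaks (59.4 to 69.8) and 84.3% for other peaks (83.4 to 85.1), and the WT day 15 share was 89.7% (87.5 to 91.6) and 84.8% (83.9 to 85.7).

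**Figure D2:**
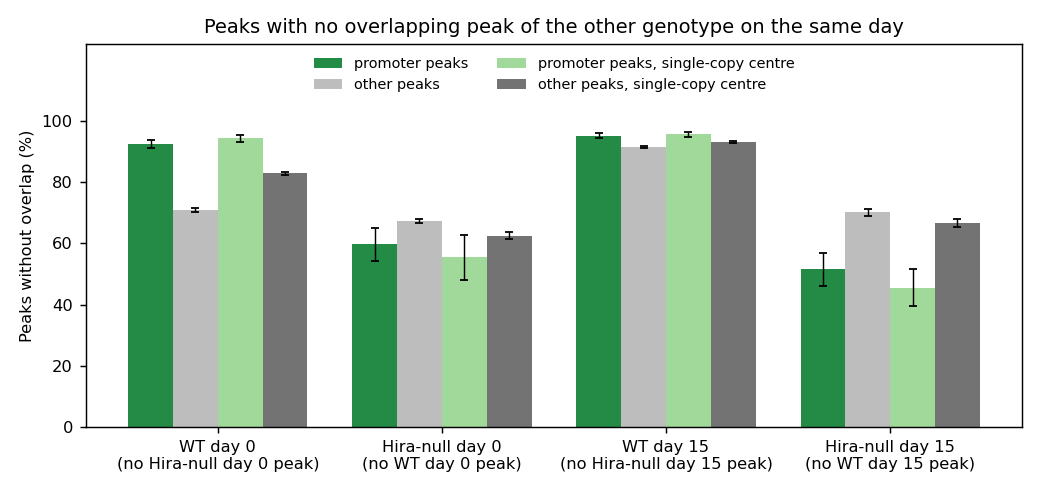
Share of promoter peaks and of other peaks (y axis, percent) that no peak of the other genotype on the same day overlapped by 1 bp, for each list (x axis), over all peaks and over those whose central 31 bases occur once in mm9. Bars are shares and error bars exact 95% intervals over peaks; WT promoter bars stand at 92.5% and 95.1% and Hira-null promoter bars at 59.8% and 51.5%.

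In the WT lists, HIRA-dependent shares were higher near the TSS and lower among high-scoring peaks. Within 1 kb of the TSS, 95.7% (94.2 to 97) of WT day 0 and 97.2% (96.2 to 98.0) of WT day 15 promoter peaks were HIRA-dependent. At 1 to 2 kb the shares were 92.4% and 94.7%, and at 2 to 3 kb 84.8% (80.8 to 88.3) and 91.3% (88.7 to 93.4). Among those ranked in the lower part of their list, up to its median score, 96.4% at day 0 and 97.8% at day 15 were HIRA-dependent, against 88.2% and 92.8% of those above it. Among promoter peaks in the top 10% of their list by score, 80.4% (73.4 to 86.2) at day 0 and 80.7% (75.7 to 85.0) at day 15 were HIRA-dependent. WT promoter peaks with a Hira-null counterpart had a median rank of 70.5 at day 0 (n = 140) and 82.7 at day 15 (n = 147), against 45.7 and 52.2 for those without. They also lay farther out, with median distances of 1644 bp and 1664 bp against 1001 bp and 1080 bp. Their central 31 bases occurred more than once in mm9 in 30.7% and 12.2% of cases, against 5.59% and 2.82%, so these traits are not free of repeated sequence.

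The highest-scoring HIRA-dependent promoter peaks of day 0 lay upstream of Matr3, a nuclear matrix RNA-binding protein gene, then of 1700001P01Rik, Snapc5, Gna13 and Lmln. The Snapc5 and Lmln peaks had their midpoints inside neighbouring ribosomal protein genes, Rpl4 and Rpl35a, and the 1700001P01Rik peak lay just past the end of another, Rpl23. The Gna13 midpoint lay inside Gm11696. All 5 overlapped a WT day 15 peak, and those at 1700001P01Rik, Snapc5 and Lmln also overlapped a Hira-null day 15 peak. At day 15 they included peaks upstream of the ubiquitin ligase gene Trim37 and of Gm17438, Ccdc79 and Edc4, which lie on chromosomes 8 and 11 and whose peaks were centred inside a neighbouring gene.

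Peaks shared between the genotypes included the strongest of all. In WT day 0 they were led by Gm3435, Osta and Cd68, and in WT day 15 by 9030025P20Rik, 1700001P01Rik and Chd2, a chromatin remodeller gene. The strongest Hira-null day 0 promoter peaks lay at the interferon gene Ifna13, at Osta and at Gm5805, and the strongest of Hira-null day 15 at Gm17404, Gm10330 and the meiotic gene Msh4. Each of those 6 Hira-null peaks overlapped a WT peak of day 0. Several of the peaks named here were centred in a neighbouring gene. The Hira-null day 15 Msh4 midpoint lay in an exon of Rabggtb, and the WT day 15 1700001P01Rik midpoint in an exon of Rpl23. The 9030025P20Rik midpoint lay in an exon of Gm3417 and the Gm3435 midpoint inside Gm3448. The Gm17404 midpoint lay within 3 kb past the ends of Gm10323 and Gm17449. The central 31 bases occurred 38 times in mm9 for the Osta peaks, 21 times for Gm17404, 3 times each for Gm3435 and 9030025P20Rik and 2 times each for Gm10330 and the WT day 0 Cd68 peak, so reads there are uncertain in their place.

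Hira-null peaks without a WT peak of the same day were led at day 0 by Atxn1l, Mfap2, Olfr761, 1700047I17Rik2 and Mtr, and at day 15 by Rasl11a, Tns4, Osta, Ror1 and Igf2, an imprinted growth factor gene whose peak midpoint lay in an exon of the antisense gene Igf2as. The day 0 peaks at Atxn1l and Olfr761 were centred on bases found 313 and 829 times in mm9, and the one at 1700047I17Rik2 on bases found 3 times. The Rasl11a and Osta peaks overlapped peaks of both genotypes at day 0, and the Ror1 peak a Hira-null day 0 peak. The Tns4 and Igf2 peaks overlapped none of the other 3 lists.

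In all, 16 genes had a promoter peak in each of the 4 lists, though not always the same peak. Ordered by the lowest rank over the lists, Cd68, a macrophage glycoprotein gene, came first, with percentiles of 99.5 in WT day 0, 92.1 in Hira-null day 0, 95.8 in WT day 15 and 93.3 at Hira-null day 15. Those peaks had their midpoints inside exons of Eif4a1, the translation factor gene next to it. Gramd2 followed with ranks from 50.5 to 74.0 and midpoints inside Pkm2, a pyruvate kinase gene, and Lpar6 with ranks from 44.4 to 98.0 inside Rb1, the retinoblastoma gene in whose intron it lies. Sumo2 ranked from 40.4 to 84.4, with overlapping peaks in WT day 0 and both Hira-null lists and 2 peaks in WT day 15, of which the higher-ranking one, centred 1740 bp upstream, overlapped none of the other lists. Cenph, a centromere protein gene, ranked from 33.4 to 98.9, and these peaks lay within 3 kb past the end of Ccnb1, the cyclin B1 gene.

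Between days, 54.6% (52.3 to 56.9) of the WT day 0 promoter peaks had no WT day 15 peak, and 70.8% (69.1 to 72.4) of the WT day 15 promoter peaks had no WT day 0 peak. For the other WT peaks the shares were 76.0% and 78.9%. By gene, 846 had a promoter peak on both WT days, which is 46.3% of the day 0 genes and 29.9% of the day 15 genes. In Hira-null cells 80.8% (76.1 to 85.0) of the day 0 and 78.5% (73.8 to 82.8) of the day 15 promoter peaks had no peak on the other day, and 59 genes had one on both, 18.2% of the day 0 genes and 18.4% of the day 15 genes. Promoter peaks found on both WT days had a median rank of 56.9 at day 0 and 67.8 at day 15, against 41.7 and 47.0 for those found on one.

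Some of the listed pluripotency genes carried promoter peaks in undifferentiated WT cells, and fewer did after differentiation. Of 19 listed genes, 10 had one in WT day 0, 1 in Hira-null day 0, 2 in WT day 15 and 0 at Hira-null day 15, against 8.16%, 1.45%, 12.6% and 1.43% of all genes. The WT day 15 share, 10.5%, was close to that of all genes. The other 9 genes, among them Sox2, Klf4 and Esrrb, had 0 in the 4 lists. Pou5f1 had a WT day 0 peak of 3599 bp at rank 98.6, centred 1958 bp upstream, and no promoter peak in the other lists. Tdgf1, the gene of a Nodal co-receptor, had one of 3996 bp at rank 97.2 that reached the TSS, and 0 in the other lists. Nanog, a homeobox factor gene, had a WT day 0 peak at 681 bp and rank 61.5 and an overlapping WT day 15 peak at 540 bp and rank 3.97. Sall4, a zinc finger factor gene, had WT peaks that reached the TSS at rank 78.2 on day 0 and 87.2 on day 15. Dppa3, which encodes a protein of germ cells and early embryos, was the exception among the 10 in having a Hira-null day 0 peak, at 1625 bp and rank 78.8, over a WT peak at 1563 bp and rank 88.5. Dppa5a had a WT day 0 peak at rank 94.0, and Lin28a, Tet1 and Zfp42 had ones at ranks 6.52, 28.7 and 55.1. H3f3a and H3f3b, the genes of H3.3 itself, each had 1 promoter peak in WT day 0, at ranks 45.2 and 64.2, and 0 in the other lists, and the other 8 genes of the list of H3.3 genes and chaperones had 0 throughout.

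Of 27 cardiac transcription factor genes, 5 had a promoter peak in WT day 15 (18.5%, against 12.6% of all genes) and 1 in WT day 0 (3.70%, against 8.16%). In the Hira-null lists 0 had one, where all genes gave 1.45% at day 0 and 1.43% at day 15. Each of these WT peaks was HIRA-dependent, as were 92.5% and 95.1% of all WT promoter peaks at day 0 and day 15. Tbx2 had 1 in WT day 15 at rank 70.3, 1508 bp upstream, and Tbx20, a T-box gene of the developing heart, 1 at rank 61.8, 1816 bp upstream. Gata4, a zinc finger factor gene of heart and endoderm that is on both lists, had 1 at 2892 bp and rank 25. Meis1, a homeobox gene, had 1 at 2136 bp and rank 31.5, and Myocd, the gene of a coactivator of serum response factor, 1 at 839 bp and rank 11. Meis1, Myocd and Tbx2 lie on chromosome 11, where 37.0% of all genes had a WT day 15 promoter peak. Chromosomes 8 and 11 hold 5 of the 27 genes. Off them, 9.55% of all genes had such a peak, and of the cardiac factor genes Gata4 and Tbx20 did. The share of 18.5% is therefore not read as an excess at cardiac factor genes. The day 0 peak belonged to Foxh1, a Nodal pathway factor gene, at rank 8.61. Of 23 sarcomere and contraction genes, 2 had one on each WT day (8.70%) and 0 in Hira-null cells. Atp2a2, the gene of the cardiac calcium pump, and Tnni1, a troponin gene, had a peak in WT day 0, Pln, the phospholamban gene, and Tcap had one in WT day 15, at ranks 6.0 and 11.9 with the Tcap midpoint inside Stard3, and the other 19 had none in any list. The smooth muscle list of 10 had Cald1 in WT day 15, with a peak over the TSS at rank 71.8, and Mylk in Hira-null day 15 at rank 13.4.

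Genes of other cell types that a day 15 culture can hold were also examined. Of 14 fibroblast and matrix genes, 4 had a peak in WT day 15 (28.6%, against 12.6% of all genes). Col1a2 had one at rank 19 and Postn at 64. The adjacent collagen genes Col4a1 and Col4a2 had peaks with midpoints in each other's gene, at ranks up to 83.3. In WT day 0, Hira-null day 0 and Hira-null day 15 the list gave 2, 1 and 2 genes (14.3%, 7.14% and 14.3%). All genes gave 8.16%, 1.45% and 1.43% there. Vim had a WT day 0 peak at rank 79.4. Lum, a matrix proteoglycan gene, had overlapping peaks in WT day 0, Hira-null day 0 and Hira-null day 15, at ranks 90.1, 86.9 and 54.1, and 0 in WT day 15. Twist1 had 1 in Hira-null day 15 at rank 13.8. Of 16 neural genes found, Mapt and Tubb3 had one in WT day 15 (12.5%, close to that of all genes) and none in another list. The Tubb3 midpoint lay inside Mc1r. Tubb3, Col4a1 and Col4a2 lie on chromosome 8 and Mapt on chromosome 11. On these chromosomes 31.3% and 37.0% of all genes had a WT day 15 promoter peak. Of 12 endoderm genes, 1 had a promoter peak, Gata4 in WT day 15 (8.33%), and the 14 endothelium and blood genes had 0 in the 4 lists. In lists this short, these counts are not read as differing from the 12.6% of all genes in WT day 15.

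**Figure D3:**
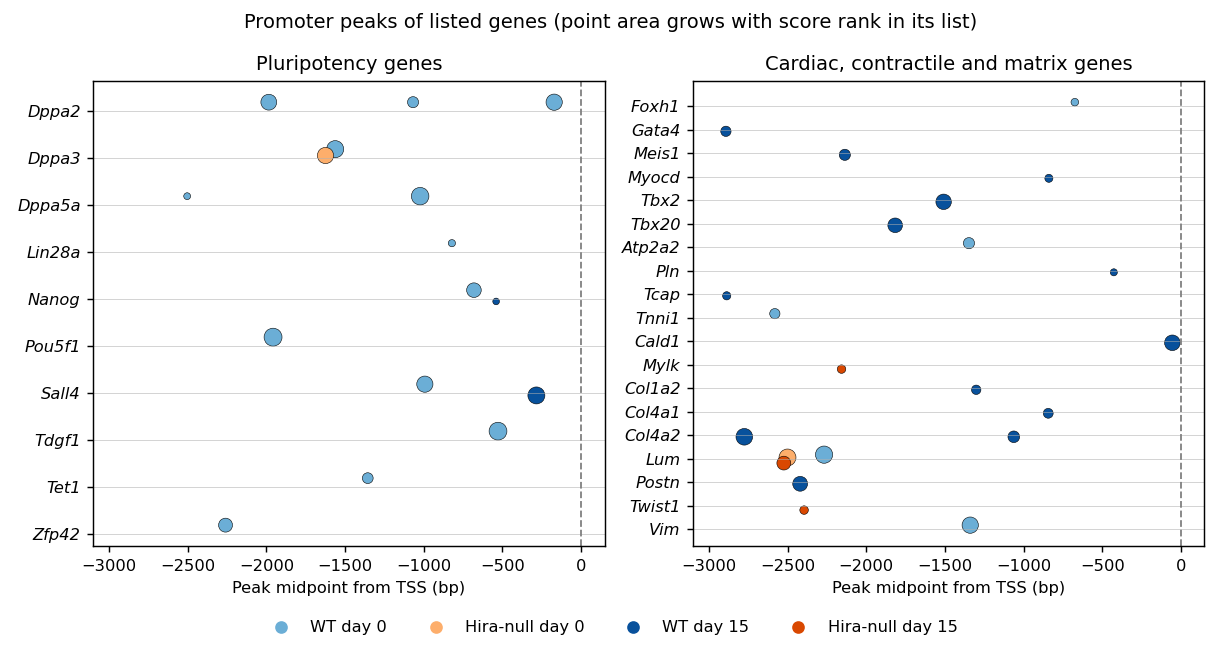
Promoter peaks of the pluripotency genes (left) and of the cardiac, contractile, smooth muscle and matrix genes (right) that have one, by midpoint distance from the TSS (x axis, bp) and gene (y axis), coloured by list, with point area growing with the score rank in its list. Light blue WT day 0 points fill the left panel, and dark blue WT day 15 points prevail on the right, where the Hira-null points belong to Lum, Mylk and Twist1.

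Of 15 housekeeping genes, 8 had a promoter peak in WT day 0 and 8 in WT day 15 (53.3% each), with 1 in each Hira-null list (6.67%). Eef1a1, an elongation factor gene, had WT peaks over the TSS at ranks 52.6 and 77.6 and a Hira-null day 15 peak centred 618 bp upstream. Ppia, the cyclophilin A gene, had WT peaks at ranks 46.8 and 85.4 and 2 Hira-null day 0 peaks at 41.3 and 44.9. Ubb, Ldha and Tuba1b had peaks on both WT days and 0 in Hira-null cells. Hsp90ab1 and Hspa8 had theirs in WT day 0 alone, and Gapdh and Polr2a in WT day 15 alone, the Gapdh one inside Ncapd2. Ppia, Ubb and Polr2a lie on chromosome 11, where 37.0% of all genes had a WT day 15 promoter peak. Of 80 ribosomal protein genes, 8 had one in WT day 0 (10%), 13 in WT day 15 (16.2%), 0 in Hira-null day 0 and 3 in Hira-null day 15 (3.75%), where all genes gave 8.16%, 12.6%, 1.45% and 1.43%. Rpl21 had peaks on both WT days, at ranks 66.1 and 84.7, and 0 in Hira-null cells. The 13 of WT day 15 include Rpl13 on chromosome 8 and Rpl19 and Rpl27 on chromosome 11, so their share is not free of the high shares there.

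Replication-dependent histone genes, which sit in dense clusters, had the highest shares of the 5 gene families counted in WT cells. Of 67 Hist genes, 29 (43.3%) had a promoter peak in WT day 0, 32 (47.8%) in WT day 15, and 0 in either Hira-null list, with 19 on both WT days. They shared peaks: 23 peaks served the 29 genes and 24 the 32. Of the 67 genes, 37 have a head-to-head partner and 55 lie on chromosome 13. Hist1h2ap and Hist1h4n shared a WT day 0 peak at rank 95.4, and the top WT day 15 peak, at Hist1h2bb, ranked 95.0. Hist genes are near-identical in their coding parts, so values at single members are uncertain. Of 367 Zfp genes, 48 had one in WT day 0 (13.1%) and 52 in WT day 15 (14.2%), against 7 and 8 in Hira-null cells (1.91% and 2.18%). Of 39 Hox genes, 2 had one on each WT day (5.13%, against 8.16% and 12.6% of all genes) and 0 in Hira-null cells. All genes gave 1.45% and 1.43% in the Hira-null lists, which comes to few genes in families of 39 or 67. The counts of 0 there are therefore not read as a loss. Of 1113 olfactory receptor genes, which are mostly silent outside the nose, 1 had one in each WT list (0.0898%) and 4 in each Hira-null list (0.359%). These shares were below those of all genes, at 8.16% and 12.6% in the WT lists and 1.45% and 1.43% in the Hira-null lists.

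**Figure D4:**
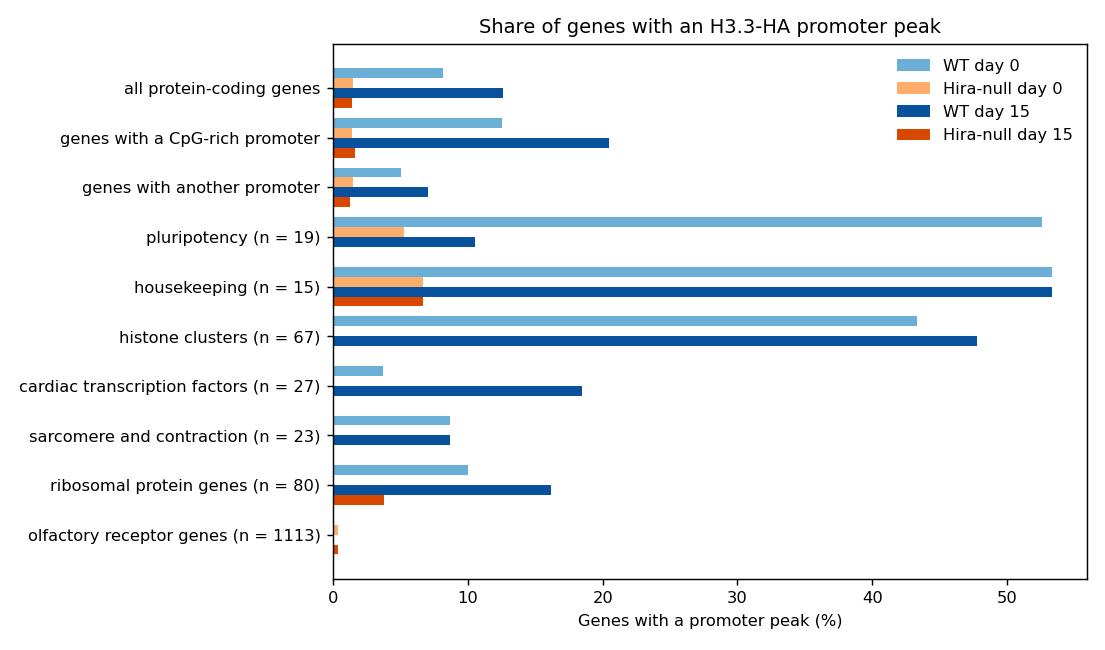
Share of genes with a promoter peak (x axis, percent) in each list, for all protein-coding genes, for genes with a CpG-rich or another promoter, and for 7 gene groups with their number of genes (y axis). WT bars reach 52.6% for pluripotency genes at day 0 and 53.3% for housekeeping genes on both days, while the Hira-null bars stay at or below 6.67%.

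The promoters behind WT peaks were CpG-rich more often than promoters at large, and the peak centres less often than the promoter windows as a whole. A stretch of 250 bases before to 50 after the TSS was called CpG-rich when over 50% of it was G or C and it held over 0.6 of the CpG that its base composition predicts. Of 9335 genes with a CpG-rich promoter, 12.5% had a promoter peak in WT day 0 and 20.5% in WT day 15, against 5.03% and 7.01% of the 13031 other genes. In the Hira-null lists the shares were 1.42% and 1.47% at day 0, and 1.64% and 1.28% at day 15, CpG-rich first. Of the 300 bases around the midpoints, 2.21% were CpG-rich in WT day 0 (1.59 to 2.98), 5.26% in Hira-null day 0 (3.10 to 8.29), 1.72% in WT day 15 (1.29 to 2.25) and 1.47% in Hira-null day 15 (0.479 to 3.40), against 6.30% of all 300-base tiles of the promoter windows. CpG content varies with distance from the TSS. Within 500 bp of the TSS, 5.50% of WT day 0 centres (3.18 to 8.78) and 6.46% of WT day 15 centres (4.30 to 9.26) were CpG-rich, against 24.0% of tiles. At 500 to 1500 bp they were 1.68% (0.965 to 2.72) and 1.14% (0.679 to 1.80), against 3.08% of tiles, and at 1500 to 3000 bp 1.47% (0.672 to 2.76) and 0.681% (0.274 to 1.4), against 1.17%. By the median ratio of observed to predicted CpG the order was the other way, at 0.257 for WT day 0 centres and 0.232 for WT day 15 centres against 0.192 for all tiles. Within 500 bp of the TSS the ratios were 0.321 and 0.335 against 0.356, at 500 to 1500 bp 0.276 and 0.256 against 0.195, and at 1500 to 3000 bp 0.180 and 0.170 against 0.161.

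Short motifs were counted in the same 300-base promoters, on both strands. GGGCGG, the core of the Sp1 site, was held by 63.3% of the promoters with a WT day 0 peak, 64.3% with a WT day 15 peak, 46.3% with a Hira-null day 0 peak and 50.9% with a Hira-null day 15 peak, against 43.4% of all promoters. TATAAA was held by 8.54%, 8.07%, 13% and 12.8% in the same order, against 13.4%. CCAAT was held by 36.8%, 36.0%, 35.5% and 34.7%, against 37.9%. GGGCGG holds a CpG itself, so its count is not independent of the CpG classes above.

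Hira-null promoter peaks were centred more often in repeated sequence. The central 31 bases of each peak were counted over both strands of mm9. They occurred more than once for 40.9% of the Hira-null day 0 promoter peaks (35.5 to 46.4) and 19.1% of the Hira-null day 15 ones (15.1 to 23.7), against 7.49% (6.33 to 8.78) in WT day 0 and 3.28% (2.67 to 3.98) in WT day 15. Tiles of all promoter windows gave 13%. The other peaks of each list were more repeated still, at 58.6% in Hira-null day 0, 30.2% in Hira-null day 15, 20.6% in WT day 0 and 4.20% in WT day 15. Among Hira-null day 15 promoter peaks, 28.6% (22.0 to 35.9) of those without a WT peak and 9.09% (5.18 to 14.6) of those with one had a repeated centre. At Hira-null day 0 the values were 45.1% (37.9 to 52.4) and 34.6% (26.5 to 43.5). In WT cells the order was the other way. Those without a Hira-null peak gave 5.59% (4.55 to 6.79) at day 0 and 2.82% (2.25 to 3.49) at day 15. Those with one gave 30.7% (23.2 to 39.1) and 12.2% (7.42 to 18.7).

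**Figure D5:**
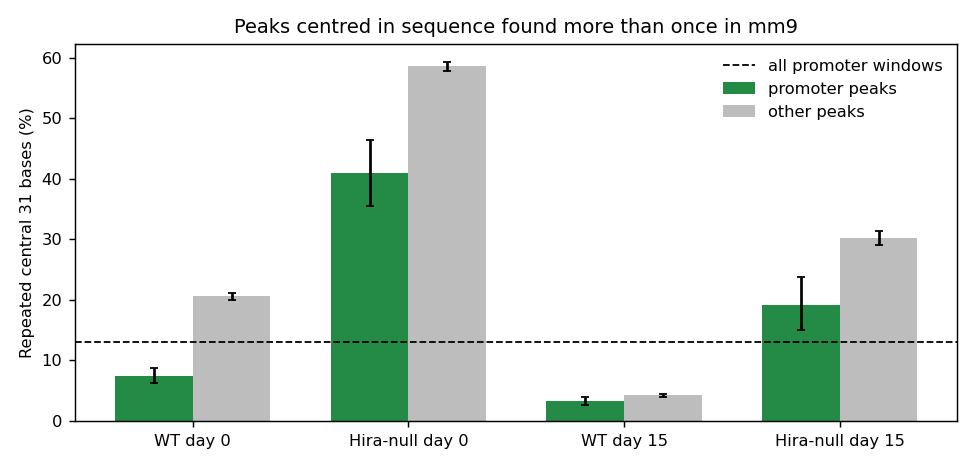
Share of peaks whose central 31 bases occur more than once in mm9 (y axis, percent), for promoter peaks and other peaks of each list (x axis), with exact 95% intervals and the share for tiles of all promoter windows as a dashed line. Hira-null promoter peaks stand above that 13% line, at 40.9% and 19.1%, and WT promoter peaks below it, at 7.49% and 3.28%.

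With single-copy centres alone, 94.4% (93.2 to 95.4) of the WT day 0 promoter peaks were HIRA-dependent, against 82.8% (82.2 to 83.4) of other WT day 0 peaks, so the difference between promoter and other peaks was smaller than over all peaks. At day 15 the values were 95.6% (94.8 to 96.3) and 93.0% (92.7 to 93.3). The median distance of single-copy Hira-null promoter peaks was 1530 bp at day 0 and 1601 bp at day 15, still above the 1005 bp and 1104 bp of WT ones. Tandem repeats, with at least 80% of the central 300 bases equal to the base a fixed 2 to 60 positions on, were found at 6 Hira-null day 0, 8 Hira-null day 15, 1 WT day 0 and 0 WT day 15 promoter peaks. The Osta repeat printed above, with 38 copies of its central 31 bases, was in 3 lists, at scores of 759 in WT day 0, 1668 in Hira-null day 0 and 517 in Hira-null day 15. Sra1 and Tmem119 had tandem repeats in both Hira-null lists. How reads from repeats were placed by the authors' aligner is not given in the sources used here.

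Part of the promoter peaks also lay in, or just past, a neighbouring gene. Midpoints lay inside another protein-coding gene for 16.8% (15.1 to 18.6) of WT day 0, 18.0% (13.9 to 22.6) of Hira-null day 0, 22.3% (20.8 to 23.8) of WT day 15 and 22.6% (18.3 to 27.5) of Hira-null day 15 promoter peaks, against 19.2% of points spread evenly over the windows of all genes. Midpoints within 3 kb past the end of another gene made up 9.70% (8.39 to 11.1), 6.19% (3.82 to 9.4), 14.2% (13 to 15.5) and 20.9% (16.7 to 25.6), against 6.80% of such points. WT day 15 promoter peaks with a Hira-null counterpart lay past a gene end in 33.3% of cases (25.8 to 41.6), against 13.3% (12.0 to 14.6) of the HIRA-dependent ones. Away from any neighbour, 97% (96.2 to 97.7) of the WT day 15 promoter peaks were HIRA-dependent and 65.1% (57.9 to 71.8) of the Hira-null day 15 ones had no WT peak, whereas past a gene end the values were 88.6% (85.2 to 91.4) and 23.9% (14.6 to 35.5). A peak in such a place cannot be given to the promoter rather than to the end of the neighbour.

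Divergent promoters, whose gene has a head-to-head partner with its TSS within 3 kb upstream, made up 8.93% of all genes, with a median of 190 bp between the starts. They held 7.76% (6.58 to 9.07) of the WT day 0 promoter peaks, 5.57% (3.34 to 8.66) of Hira-null day 0, 9.44% (8.42 to 10.5) of WT day 15 and 3.82% (2.05 to 6.45) of Hira-null day 15. By gene, 8.41% of divergent and 8.14% of one-sided genes had a promoter peak in WT day 0, and 15.2% and 12.4% at day 15. For Hira-null cells the shares were 1.00% and 1.49% at day 0 and 0.701% and 1.5% at day 15. At divergent genes, the midpoint lay past the partner's TSS in 85.4% (78.6 to 90.7) of 144 WT day 0 peaks. The share was 87.7% (83.3 to 91.3) of 285 WT day 15 peaks. Such midpoints are inside the partner or beyond it. With a median of 190 bp between the starts, most of a typical 3 kb window lies past the partner's TSS. The share of window points there was not computed, so no preference of the peaks is read from these shares. HIRA-dependent peaks made up 94.4% and 97.2% of the divergent ones and 92.3% and 94.9% of the one-sided ones in WT day 0 and day 15.

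Chromosomes 8 and 11 held 12.2% of the genes, 20.2% of the WT day 0 promoter peaks (18.4 to 22.1) and 35.2% of the WT day 15 ones (33.5 to 37.0), against 14.2% and 12.9% in Hira-null cells. In WT day 15, 31.3% of the genes of chromosome 8 and 37.0% of those of chromosome 11 had a promoter peak, and the other autosomes ranged from 7.48% to 11.6%. Without these chromosomes, WT day 15 had 1875 genes with a promoter peak and WT day 0 had 1452. Chromosome X, with 932 genes, held 1, 1, 0 and 1 promoter peaks in WT day 0, Hira-null day 0, WT day 15 and Hira-null day 15. The cause of the chromosome differences was not tested. It touches Tbx2, Meis1, Myocd, Tcap, Mapt, Tubb3, Col4a1, Col4a2 and the other genes named above that lie on chromosomes 8 and 11.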

How the data were processed

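Native H3.3-HA ChIP-seq of 8 samples was used, with 1 ChIP and 1 input library in each of 4 conditions. The authors aligned reads with Bowtie, removed duplicates with Samtools and called peaks with MACS, given as version 1.4.2 on mm9 in the submitters' processing notes. They deposited 1 peak list per ChIP library, whose score is the peak caller's own, was read as rank within a list, and is not comparable between libraries. No separate file was used for the 4 input libraries, whether they served as peak-calling control is not stated in the sources used here, and the read depth is unknown.

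The promoter was the 3 kb upstream of the 5′ end of each protein-coding gene of the mm9 annotation, on chromosomes 1 to 19, X and Y, and a peak belonged to it by its midpoint. Lists were compared by overlap of at least 1 bp. On simulated data, 100% of 2000 peaks received the planted result, and all 12 list pairs equalled bedtools 2.31.1. Python 3.11.15, pysam 0.24.0 and numba 0.67.0 were used for counting and sequence, and scipy 1.17.1 gave exact (Clopper-Pearson) 95% intervals, over peaks. No test between conditions was made, since each has 1 library.

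Named peaks were the 3 with the highest score in each list, for each day the 5 highest-scoring in each overlap class, the 5 genes with peaks in all 4 lists ordered by their lowest rank, the genes with the most peaks, and members of 10 gene lists. In the neural list 16 of 18 names were found. Some genes that this rule names are not reported here. Members and lists were chosen with earlier results of these data known. Alternatives were a 1 kb promoter, the TSS of every transcript, touching peaks, a score of at least 100, lists of equal length, other overlap rules, a closer head-to-head partner and leaving out chromosomes 8 and 11. Peaks with single-copy centres and peaks clear of other genes were added after seeing the data.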

Additional observations from a re-analysis of the deposited data

Results flagged for a closer look

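Of 11 quantities compared between days, 3 changed with opposite sign in the WT and Hira-null cells from day 0 to day 15, whatever the size of the change. On the Hira-null side the changes were small, and no reversal is read from them. With 1 library per condition, none of these differences between genotypes was tested. The share of promoter peaks at divergent genes was 7.76% (6.58 to 9.07) at day 0 and 9.44% (8.42 to 10.5) at day 15 in WT cells. In Hira-null cells it was 5.57% (3.34 to 8.66) and 3.82% (2.05 to 6.45), where it rests on 18 and 13 peaks. The intervals of the days overlapped in each genotype. The share on chromosomes 8 and 11 was 20.2% and 35.2% in WT cells, and 14.2% and 12.9% in Hira-null cells. The number of genes with a promoter peak was 1826 and 2825 in WT cells, and 324 and 320 in Hira-null cells.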

How the results depend on the processing

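No paired analysis was possible because each condition has 1 ChIP library, and no replicate could be left out for the same reason. Of 136 values recomputed under alternatives, 59 stayed within the 95% interval of the reported value, or within 1.5 times a reported count, and 77 did not. The share of peaks in promoters and the number of genes with one were higher in WT than in Hira-null cells on both days under each alternative run for them. The median distance was shorter in WT cells under each, except with a 1 kb promoter at day 15. Values below are given in the order WT day 0, Hira-null day 0, WT day 15, Hira-null day 15 where 4 are listed.

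With a 1 kb promoter, by construction smaller, the share of peaks in promoters was 3.93%, 0.441%, 4.95% and 1.24%, the genes with a promoter peak numbered 910, 79, 1374 and 93, and the median distance was 631, 649, 636 and 584 bp. The median width was then 1010, 1222 and 914 bp in WT day 0, Hira-null day 0 and WT day 15, the median rank 43.6 and 50.3 in WT day 0 and WT day 15, and the HIRA-dependent share 95.7% and 97.2%. With the TSS of every transcript the share in promoters was 10.3%, 2.28%, 13.9% and 5.76%. With any peak that touches the window it was 9.89%, 2.86%, 12.5% and 5.91%, with 494 genes in Hira-null day 0 and HIRA-dependent shares of 91.1% and 94.1%.

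With a score of at least 100 the share in promoters was 7.68%, 1.56%, 11.8% and 4.12%, the genes numbered 604, 166, 1278 and 127, and the median width was 1532, 1788, 1287 and 1178 bp. The median distance was then 1222 and 1159 bp in WT day 0 and WT day 15, the median rank 49.6 in WT day 15 and 51.6 among Hira-null day 15 peaks, the HIRA-dependent share of WT day 15 96.1%, and the share of Hira-null day 0 without a WT peak 70.1%. Once the lists had equal length, the share in promoters was 7.62%, 1.43% and 12.1% in the first 3 lists, with 567, 108 and 885 genes. The share without the other genotype was then 89.7% in WT day 15 and 64.7% among Hira-null day 15 peaks, and the share without the other WT day 66.7% in WT day 0 and 78.6% in WT day 15.

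Where 50% of a peak had to be covered, the share without the other genotype was 93.8% in WT day 0, 69.3% in Hira-null day 0 and 97% in WT day 15, and the share without the other WT day 62.2% and 74.9%. With the other list widened by 1 kb, the share without the other genotype was 90.7% in WT day 0, 93.5% in WT day 15 and 45% among Hira-null day 15 peaks. Without chromosomes 8 and 11, WT day 15 had 1875 genes and a HIRA-dependent share of 93.6%. A head-to-head partner within 1 kb gave divergent shares of 6.41% in WT day 0 and 7.65% in WT day 15.

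For single-copy centres, an alternative chosen after seeing the data, the HIRA-dependent share was 94.4% in WT day 0, the Hira-null day 15 share without a WT peak 45.5%, and the Hira-null day 0 medians 1530 bp for distance, 1275 bp for width and 35.5 for rank. For peaks clear of other genes, also chosen after seeing the data, 97% of WT day 15 promoter peaks were HIRA-dependent, and 65.1% of Hira-null day 15 ones had no WT peak. Apart from changes that follow from each alternative's construction, the cause was not tested. Read depth, which is unknown, limits what the absence of a peak can show.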
